A study of Mus musculus with 13 samples.

Results

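Microglia of mice fed a high-fat diet (HFD) for 4 weeks were compared with microglia of control mice sorted on the same plates. The members were all wells of 4-week HFD or control diet on plates 1 and 4 that held at least 1500 transcripts. They came to 185 cells of 264 such wells, out of 1617 cells that passed the same minimum in the whole series of 2496 wells. The 105 HFD cells carried 3 replicate identifiers and the 80 control cells carried 2.

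The mice were C57BL/6J males without a genetic modification, given either standard chow or a diet with 60% fat (D12492), and their age was not given in the sources used here. The labels name the tissue as brain and the methods name hypothalamic microglia for these libraries. Cells low for CD45 and positive for CD11b were sorted singly into plates of 192 wells, and their RNA was sequenced by CEL-Seq2, which counts transcripts at the 3' end through unique molecular identifiers (UMIs). The length of the diet was taken from the table of wells that accompanies the counts. On plate 1 the control identifier was L1 (73 cells) and the HFD identifier L2 (76 cells). On plate 4 the control was M26 (7 cells) and the HFD identifiers were M20 (15 cells) and M21 (14 cells). Whether an identifier is 1 mouse or several was not settled by the sources, so p-values measure the spread between these sums, which may be technical. The names of the L1 wells carried 4 weeks for 49 of the kept cells and 10 weeks for the other 24, and those of L2 carried 4 weeks. All cells of an identifier on a plate were added up, and these 5 sums are the units of the comparison with control.

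Microglia are the resident macrophages of the brain. They depend on signalling through the receptor Csf1r, survey the tissue through receptors such as P2ry12 and Cx3cr1, clear debris in their lysosomes and present little antigen on MHC class II in the healthy brain. The hypothalamus controls feeding and energy balance, and its microglia are known to respond to dietary fat. Whether 4 weeks of HFD altered their transcripts is the question the comparison addresses.

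The depth behind the sums was unequal. Plate 1 gave 194292 transcripts for L2 and 206538 for L1, while plate 4 gave 83007 for M20, 67983 for M21 and 29842 for M26. One count was thus worth 33.5 CPM (counts scaled to a library total of 1000000) in M26 and 4.84 CPM in L1, and the limit that a count of 0 allows (3 counts) was 100.5 CPM in M26. Of the 24 wells of M26 on plate 4, 7 passed the minimum and the median well held 136 transcripts. On plate 5, which also held M20 and M21 cells, 0 of 24 M26 wells passed, so plate 5 has no control for this diet. The median kept cell held 2448 transcripts in L2, 2664 in L1, 5221 in M20, 4742 in M21 and 4823 in M26. An exact permutation of the diets within plates has 6 assignments, so its smallest p is 0.167 and it could not reach 0.05. The HFD minus control difference in median transcripts, averaged over the plates, was -29.1 (exact permutation, two-sided p = 1). The share of wells kept was 17.2 percentage points higher in HFD (exact permutation, two-sided p = 0.167, the smallest possible). The median cell had 1423.5 detected genes in L2 and 1509 in L1, and 2330, 2322 and 2131 in M20, M21 and M26. The difference was -85.5 on plate 1 and 195 on plate 4, with a mean of 54.8 (exact permutation, two-sided p = 0.667). The difference in median transcripts also changed sign, from -216 on plate 1 to 158 on plate 4.

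The sorted cells carried microglial transcripts in every sum. All 10 microglial markers of the list were present in each of the 5 sums. P2ry12, a purinergic receptor, was detected in 85.7% to 100% of the cells of each sum, Csf1r and Cx3cr1 in 100%, and Tmem119 in 85.7% to 97.3%. The 10 markers held a median of 3.34% of the UMIs of the 185 cells. In 2 cells, 1 of M20 and 1 of M21 on plate 4, that share lay under 1%, and these cells turned out to hold many of the transcripts described here. Counts of cells with at least 3 UMIs of another type's markers, leaving out 3 markers that microglia also express, were 2 of 76 in L2, 6 of 73 in L1, 2 of 15 in M20, 5 of 14 in M21 and 0 of 7 in M26. The summed level of the 5 monocyte markers present was 306 CPM in M20 and 124 CPM in M21, against 28.4 to 42.9 CPM in the other 3 sums, and 4 of the 5 were at 0 in M26.

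No gene passed the test of 4-week HFD against control. edgeR's quasi-likelihood test with the plate as a block called 0 of 1856 tested genes (0.0%) at a Benjamini-Hochberg adjusted p of 0.05, and the smallest adjusted p was 0.9998. Before adjustment, 25 genes had p under 0.05, where uniform p-values would give 92.8, and DESeq2 called 0 genes with 6 under 0.05 before adjustment. With 2 residual degrees of freedom the same fit recovered 68.7% of simulated 4-fold changes and 11.9% of 2-fold changes. The simulated sums had the same level of a gene on both plates, and single cells were not simulated. These shares may thus overstate recovery in the real sums, and changes of about 2-fold were mostly not detectable here. The median log2 fold change of the tested genes was 0.02. Of the tested genes, 970 had a positive and 886 a negative log2 fold change.

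The plates did not share a direction across genes. The 2-fold limits here were applied to log2 CPM with a prior count of 2, which shrinks differences of low genes. Among 1867 genes with a mean of at least 100 CPM, 28 differed more than 2-fold between L2 and L1 on plate 1, and 377 (20.2%) between the mean of M20 and M21 and M26 on plate 4. Of those 377, 277 were higher in HFD, and in 233 of the 377 M26 held at most 3 counts. The sign was shared by both plates in 900 of the 1867 genes (48.2%). The correlation of the plate differences across these genes was -0.02 (Pearson), a description over genes that are not independent. More than 2-fold higher on both plates were 3 genes (0.161%), Ccdc88a, Cdkn1a and Reep5, and more than 2-fold lower were 0 genes (0.0%). Another 5 genes passed 2-fold in opposite directions. Every HFD sum lay above the control of its plate in 409 genes (21.9%) and below it in 239 (12.8%).

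**Figure D1:**
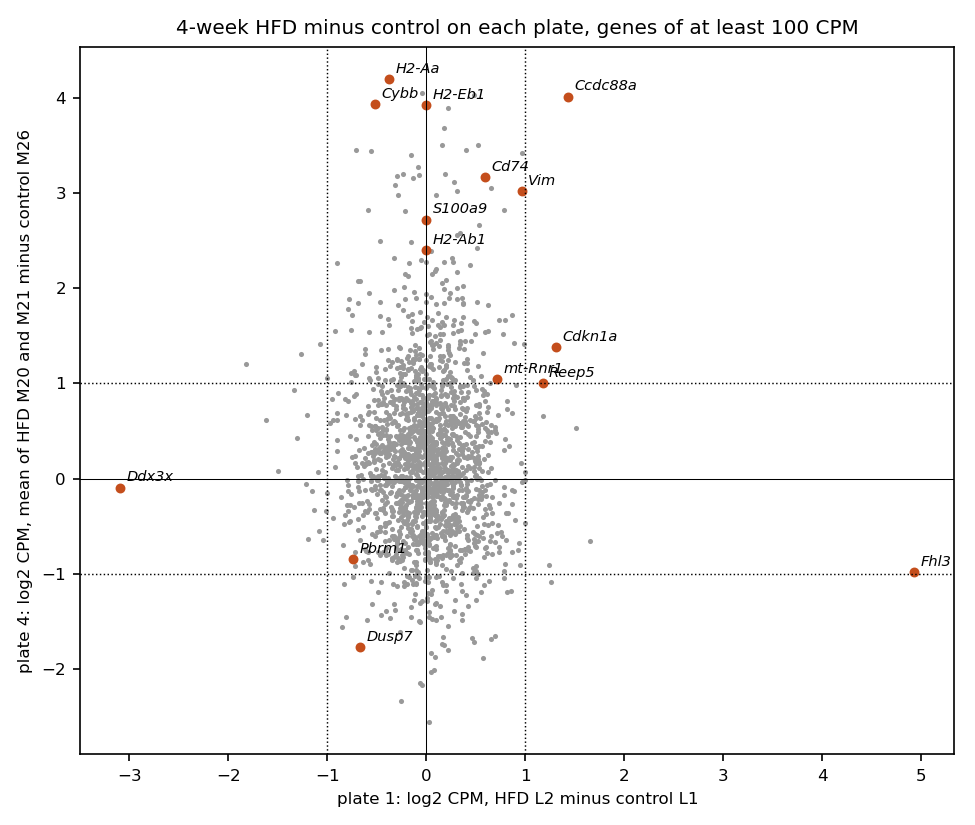
Each point is 1 of 1867 genes with a mean of at least 100 CPM. The horizontal axis is the log2 CPM difference of L2 minus L1 on plate 1, the vertical axis that of the mean of M20 and M21 minus M26 on plate 4, and dotted lines mark 2-fold. The cloud is wider along the plate 4 axis and has no slope (Pearson -0.02), Ddx3x and Fhl3 lie far out on plate 1 alone, and the MHC class II genes lie high on plate 4 alone.

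Sums of the same diet also differed, though the sums compared were of unequal depth. The median absolute log2 difference over the 1867 genes was 0.23 for L2 against L1. It was 0.33 between the L1 wells named for 10 and for 4 weeks, both control and both on plate 1, but these sums held 24 and 49 cells against 76 and 73 in L2 and L1, and fewer cells widen the spread by counting error alone. On plate 4 it was 0.58 for M20 and 0.52 for M21 against M26, and 0.43 between M20 and M21, which had the same diet. The same identifier on plates 4 and 5 differed by 0.47 for M20 and 0.43 for M21. More than 2-fold apart were 14.4% of genes for M20 against M21 on plate 4, and 23.1% for M21 against M26, where the control sum was the smallest.

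The MHC class II genes had 3 of the 5 smallest p-values among genes higher in HFD. H2-Aa, H2-Ab1 and H2-Eb1 encode the chains of the antigen-presenting molecule, and Cd74 its invariant chain. H2-Aa lies at chr17:34282744-34287823 (minus strand) and H2-Eb1 at chr17:34305867-34316674 (plus strand) in GRCm38. The 250 bases before the start of both genes, from RefSeq (GRCm38.p6), are shown because their transcripts appeared together in the same cells. Capitals mark CTGATTGG, the letters of the Y box to which the factor NF-Y is known to bind in class II promoters.
H2-Aa, chr17:34287824-34288073, minus strand: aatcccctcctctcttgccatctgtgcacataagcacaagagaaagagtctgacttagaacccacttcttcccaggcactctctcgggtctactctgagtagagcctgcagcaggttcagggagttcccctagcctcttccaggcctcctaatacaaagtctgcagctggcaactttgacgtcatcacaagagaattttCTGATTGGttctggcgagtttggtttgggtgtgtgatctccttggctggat
H2-Eb1, chr17:34305617-34305866, plus strand: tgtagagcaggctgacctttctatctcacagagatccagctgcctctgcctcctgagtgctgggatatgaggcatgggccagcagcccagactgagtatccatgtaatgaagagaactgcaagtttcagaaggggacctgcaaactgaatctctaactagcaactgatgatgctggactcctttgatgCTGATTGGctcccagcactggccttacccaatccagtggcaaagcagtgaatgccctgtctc
CTGATTGG or its reverse complement was found in 1258 of 32851 such windows (3.83%), so both matches are descriptions of these sequences and not of binding in these cells.

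H2-Aa stood at 0 CPM in L2 and 5.36 CPM in L1 on plate 1, and at 4667 CPM in M20, 386 CPM in M21 and 56.8 CPM in M26 on plate 4. On plate 1 both diets were thus near 0, while on plate 4 both HFD sums lay above the control. H2-Eb1 was at 0 in both sums of plate 1 and at 3699, 331 and 56.8 CPM in M20, M21 and M26. H2-Ab1 was at 0 in both sums of plate 1 and at 4936, 248 and 199 CPM. Cd74 was at 17.3 CPM in L2 and 5.36 CPM in L1, and at 7092, 179 and 114 CPM in M20, M21 and M26.

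The log2 fold changes were 4.81 ± 1.34 (SE) for H2-Eb1, 4.49 ± 1.34 for H2-Aa, 4.38 ± 1.43 for Cd74 and 3.49 ± 1.25 for H2-Ab1. The adjusted p was 0.9998 for each (edgeR). M26 held 2 UMIs of H2-Aa, so the ratio of M21 to M26 was 6.15 with a 95% counting interval from 1.55 to 53.2, and for Cd74, with 4 UMIs in M26, it was 1.43 with an interval from 0.441 to 6.01. These intervals cover counting error only. The median log2 fold change of the 5 tested class II genes was 4.38, and it was 0.21 without M20, 0.13 without cells with markers of other cell types and 0 without M26.

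Nearly all of the class II transcripts of M20 lay in 1 cell. That cell held 1546 of the 1583 class II UMIs of M20, the next highest cell held 6, and the median cell held 3. It had 19948 of the 83007 transcripts of M20 and 4505 detected genes. Its microglial marker share was 0.218%, and it had 0 UMIs of P2ry12, Tmem119, Fcrls and Sall1, with 23 of Csf1r and 14 of Cx3cr1. It also held 53 of the 54 Vim UMIs of M20 (Vim encodes the intermediate filament vimentin), 34 of 34 Lgals3 UMIs (galectin-3), 15 of 15 S100a4 UMIs and 31 of 37 Ccdc88a UMIs. Xist, the RNA that coats the inactive X chromosome of female cells, had 26 UMIs in this cell and 3 UMIs in the other 184 cells together, although the methods name males only. Without the cell with most UMIs, the level in M20 fell from 4594 to 159 CPM for H2-Aa and from 6981 to 79.3 CPM for Cd74, on the scale of plain CPM.

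In M21 the cell with the most class II UMIs held 48 of 83, and its microglial marker share was 3.00%. The well with the same number on plate 5, also of M21, held 577 class II UMIs. All 192 well numbers are shared by plates 1, 4 and 5. The well on plate 5 that shares its number with the M20 cell above held 32 class II UMIs among 374 transcripts, under the minimum. Whether transcripts passed between wells of the same number was not tested.

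The share of cells with at least 5 class II UMIs was 0% of 76 in L2 and 0% of 73 in L1, which allow shares of up to 4.74% and 4.93% (exact Clopper-Pearson 95% bounds). It was 20% (4.33% to 48.1%) in M20, 21.4% (4.66% to 50.8%) in M21 and 14.3% (0.361% to 57.9%) in M26. The intervals of plate 4 overlap, and the HFD minus control difference there was 6.43 percentage points. Averaged over both plates it was 3.21 percentage points (exact permutation, two-sided p = 0.333). At least 3 class II UMIs were found in 28.6% to 60% of the plate 4 cells of each sum and in 0% of the plate 1 cells, so the plates differed in both diets. Thinned to 1500 UMIs a cell, the shares with at least 3 were 13.3% in M20, 7.14% in M21 and 0% in M26.

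**Figure D2:**
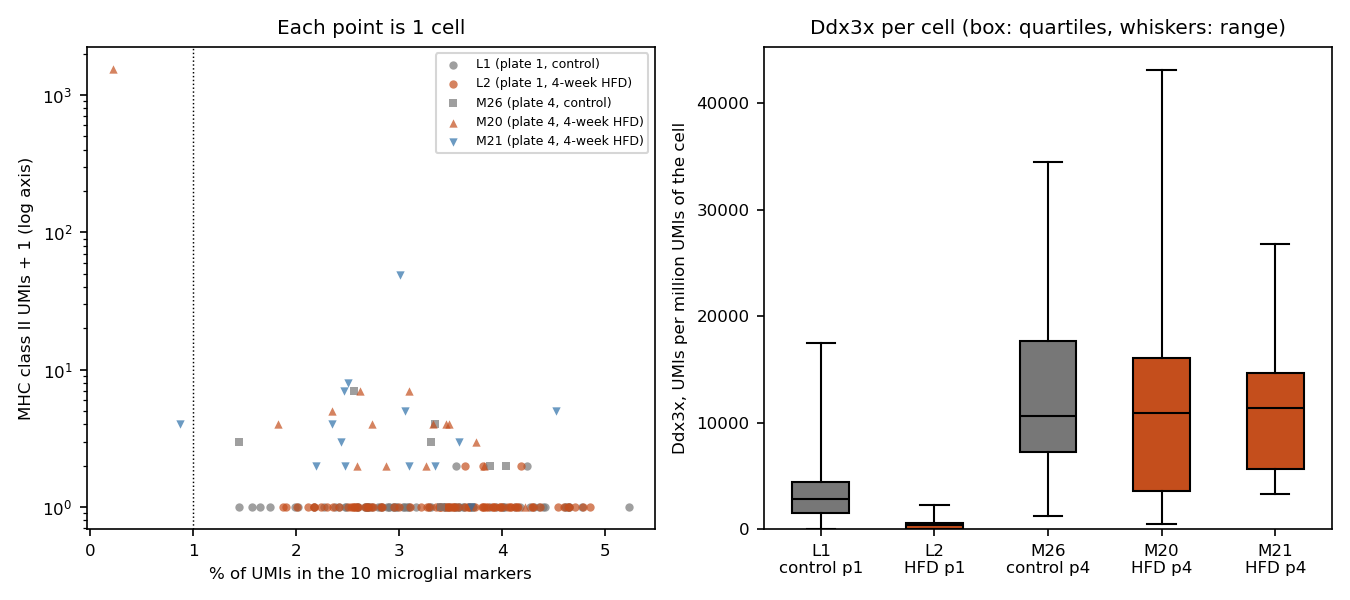
Left, each point is 1 of the 185 cells, with the percent of its UMIs in the 10 microglial markers on the horizontal axis and its MHC class II UMIs plus 1 on a log axis. The cell of M20 with 1546 class II UMIs lies alone at the upper left, under the dotted line at 1%. Right, the Ddx3x level of each cell as CPM of its own UMIs, with boxes for quartiles and whiskers for the range, are lowest in L2 and alike in the 3 sums of plate 4.

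Ddx3x had the smallest p among genes lower in HFD, and the difference came from plate 1. Ddx3x encodes a DEAD-box RNA helicase on the X chromosome (X:13280970-13294052, plus strand, GRCm38). It stood at 450 CPM in L2 and 3976 CPM in L1. On plate 4 it stood at 11967 CPM in M20, 11188 CPM in M21 and 12356 CPM in M26, where the diets differed by -0.09 on the log2 scale against -3.09 on plate 1. The plate 1 difference was spread over many cells: 71 of 73 L1 cells held 740 UMIs and 50 of 76 L2 cells held 78, with at most 10.3% of the UMIs of either sum in 1 cell. Both name classes of L1 were high, at 3229 CPM in the wells named for 4 weeks and 4325 CPM in those named for 10 weeks, against 402 CPM in L2 (plain CPM). Over the 28 control sums of 12 plates the level ranged from 328 to 12929 CPM with a median of 2529 CPM, and on this scale, set over more sums, L2 stood at 465 CPM with 2 control sums below it. On plate 5 M20 and M21 stood at 3114 and 2506 CPM, below their level on plate 4. The log2 fold change over both plates was -1.51 ± 0.48 (SE, edgeR adjusted p = 0.9998), with -0.11 without L2 and -3.13 without M26. Without the 2 cells low in microglial markers it was -1.36 with an edgeR adjusted p of 0.00138, and Ddx3x was then the 1 gene called. The cause of the low level of L2 was not tested.

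The mitochondrial 12S ribosomal RNA mt-Rnr1 was higher in every HFD sum than in the control of its plate. It stood at 10118 CPM in L2 and 6163 CPM in L1, and at 3234, 4147 and 1761 CPM in M20, M21 and M26. The log2 fold change was 0.83 ± 0.25 (SE, edgeR adjusted p = 0.9998), with 0.71 on plate 1 and 1.05 on plate 4. On plate 1 at most 6.02% of its UMIs lay in 1 cell, and both name classes of L1 were below L2, at 5478 and 5737 against 9029 plain CPM. On plate 4 the cell with most mt-Rnr1 UMIs held 57.9% of them in M20, 52.0% in M21 and 33.9% in M26. Without the top cell of each sum the levels were 1747, 2316 and 1625 plain CPM in M20, M21 and M26, against 3180, 4432 and 2081 with it. On the scale set over the 28 control sums, which ranged from 775 to 9152 CPM, L2 stood at 10459 CPM, above all of them. The 7 mitochondrially encoded respiratory chain genes present summed to 16510 CPM in L2 and 16409 CPM in L1, and to 14037, 12331 and 9629 CPM in M20, M21 and M26. All 6 of them that were tested had positive log2 fold changes, none called, with a median of 0.17. The median difference of the list was -0.03 on plate 1 and 0.44 on plate 4, opposite in sign, and without M26 the median log2 fold change was -0.06.

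Ccdc88a, Cdkn1a and Reep5 passed 2-fold on both plates, with few UMIs on plate 4. Ccdc88a encodes girdin, an actin-binding protein of cell migration (chr11:29373658-29510808, plus strand). It stood at 248 CPM in L2 and 80.4 CPM in L1, and at 453 and 165 CPM in M20 and M21 with 0 UMIs in M26. Against the limit of 3 counts in M26 this was at least 4.45-fold higher in M20 and at least 1.76-fold higher in M21 on plain CPM. On plate 1 it was found in 31 of 76 L2 cells and 12 of 73 L1 cells. Without the cell with most of its UMIs the level of M20 was 95.2 plain CPM, under the limit of M26.

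Cdkn1a encodes the cell cycle inhibitor p21. It stood at 40.4 CPM in L2 and 5.36 CPM in L1, and at 73.5, 400 and 56.8 CPM in M20, M21 and M26. These rest on 7 UMIs against 1 on plate 1, and on plate 4 20 of the 29 UMIs of M21 lay in 1 cell. Reep5, a membrane-shaping protein of the endoplasmic reticulum, stood at 265 CPM in L2 and 107 CPM in L1, and at 135, 262 and 85.2 CPM in M20, M21 and M26. It was found in 36 of 76 L2 cells and 14 of 73 L1 cells, and M26 held 3 UMIs. The ratio of M21 to M26 was 2.78 (95% counting interval 0.818 to 14.7) and that of M20 to M26 was 1.32 (0.348 to 7.36).

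**Figure D3:**
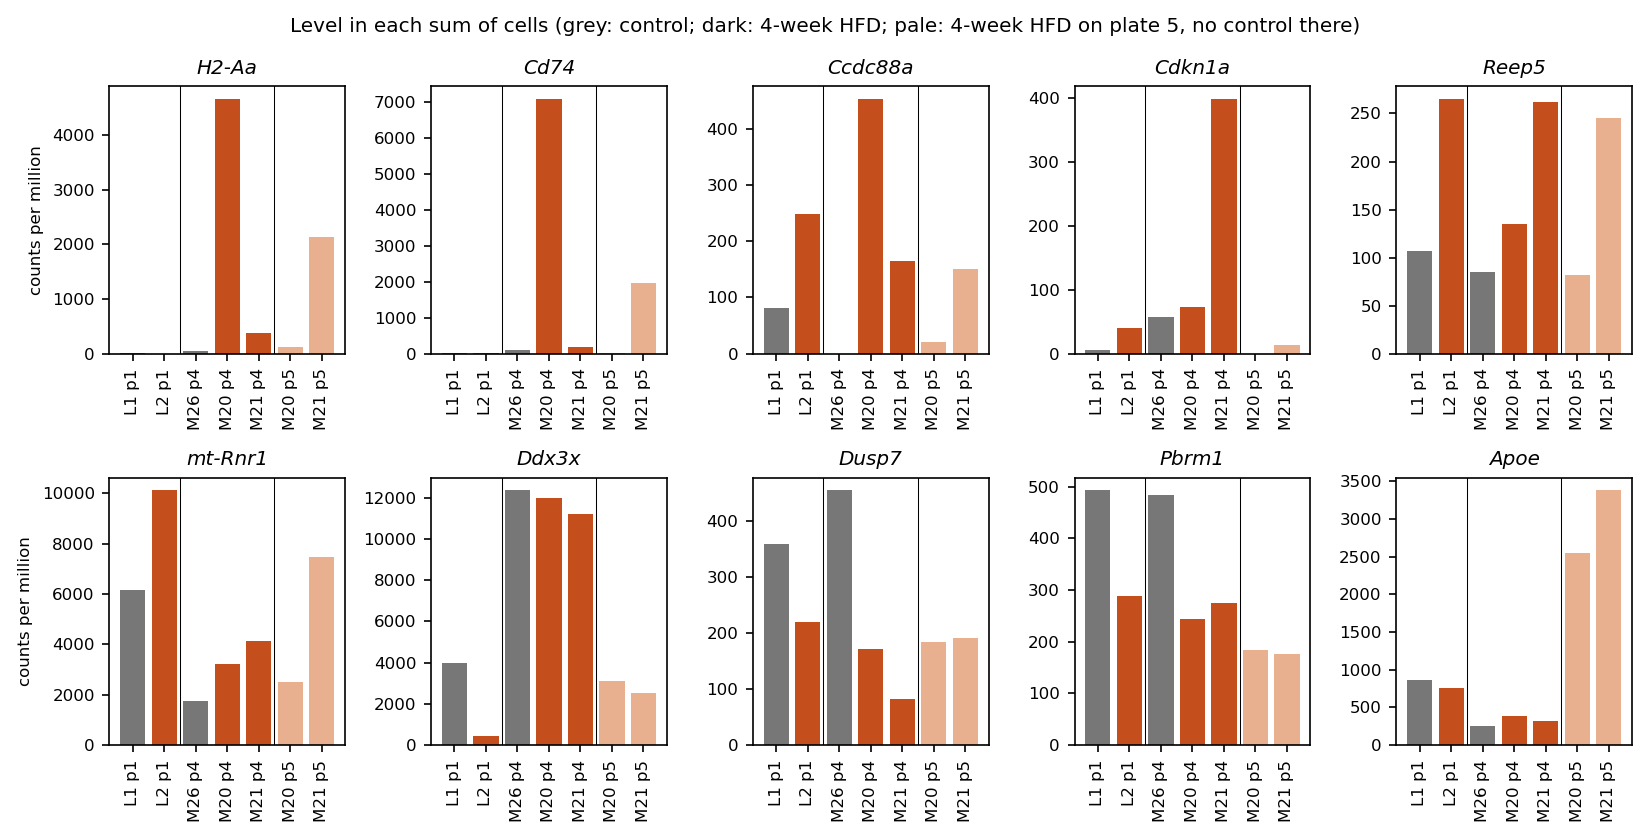
Bars give the level of 10 genes in CPM, each on its own linear axis from 0, in control sums (grey), 4-week HFD sums of plates 1 and 4 (dark) and of plate 5 (pale), with lines between plates. Dusp7 and Pbrm1 are lower in every HFD sum of plates 1 and 4 than in the control of the same plate, Ddx3x differs on plate 1, and H2-Aa and Cd74 are high in M20 of plate 4 and M21 of plate 5.

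Other genes lay above the control in all 3 HFD sums but did not pass 2-fold on both plates on log2 CPM with a prior count of 2. That prior count shrinks differences of low genes. The CPM of Suv420h1 and Ccng2 below are more than 2-fold apart, while the log2 CPM differences of Ccng2 were 0.90 and 0.98. Pcbp2, an RNA-binding protein, stood at 421 CPM in L2 and 220 CPM in L1, and at 220, 152 and 56.8 CPM in M20, M21 and M26. Its log2 fold change was 1.06 ± 0.42 (SE, edgeR adjusted p = 0.9998). Suv420h1, a histone methyltransferase, stood at 231 and 107 CPM on plate 1 and at 171, 193 and 56.8 CPM on plate 4. Ccng2, which encodes cyclin G2, stood at 237 and 118 CPM on plate 1 and at 122, 138 and 56.8 CPM on plate 4. In each of these 3 genes M26 held 2 UMIs. Vim and Lgals3 met the same rule through few UMIs, with 3 UMIs of each in L2 and 0 in L1.

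Dusp7 and Pbrm1 were lower in all 3 HFD sums than in their controls, as were 12.8% of the 1867 genes of at least 100 CPM. Genes were named partly by this rule, so that order is no separate result. Dusp7 encodes a phosphatase that inactivates MAP kinases. It stood at 219 CPM in L2 and 359 CPM in L1, and at 171, 82.7 and 454 CPM in M20, M21 and M26. The log2 fold change was -1.25 ± 0.41 (SE, edgeR adjusted p = 0.9998), with -0.70 without M26 and -1.84 without L1. Pbrm1, a subunit of the PBAF chromatin remodelling complex, stood at 288 and 493 CPM on plate 1 and at 245, 276 and 483 CPM on plate 4. Its log2 fold change was -0.89 ± 0.34 (SE, edgeR adjusted p = 0.9998). On plate 5, without a control, M20 and M21 stood at 184 and 191 CPM for Dusp7 and at 184 and 177 CPM for Pbrm1.

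Rapgef5, an exchange factor of the small GTPase Rap, stood at 75.0 CPM in L2 and 150 CPM in L1, and at 61.2, 68.9 and 227 CPM on plate 4. Pi4k2a, a phosphatidylinositol 4-kinase, stood at 80.8 and 155 CPM on plate 1 and at 73.5, 68.9 and 227 CPM on plate 4. Rnaset2b, a ribonuclease, stood at 80.8 and 145 CPM on plate 1 and at 196, 179 and 369 CPM on plate 4. Arhgap27, AF251705 and Arf1 met the same rule, with log2 fold changes of -1.06, -0.79 and -0.93. None of these 6 passed the test. M26 held 8 UMIs each of Rapgef5 and Pi4k2a.

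Single cells set several other levels. Fhl3, a LIM domain protein, stood at 865 CPM in L2 and 10.7 CPM in L1, and 125 of its 148 UMIs in L2 lay in 1 cell. That cell had 3049 transcripts and a microglial marker share of 2.01%, and the other 23 UMIs lay in 19 cells. Lpl, the lipoprotein lipase that releases fatty acids from circulating fat, stood at 1529 CPM in M21, 0 in M20 and 170 CPM in M26, and at 40.4 and 48.2 CPM in L2 and L1. Of its 110 UMIs in M21, 87 lay in 1 cell whose microglial marker share was 0.874%. S100a9, a protein of neutrophils, had 56 UMIs in M21, all in 1 cell with a marker share of 2.44%, and 0 in the other 4 sums. The well of the same number on plate 5 held 867 S100a9 UMIs. Alb, the liver's serum albumin, had 25 of its 27 UMIs in M21 in 1 cell, and the well of the same number on plate 5 held 6.

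**Figure D4:**
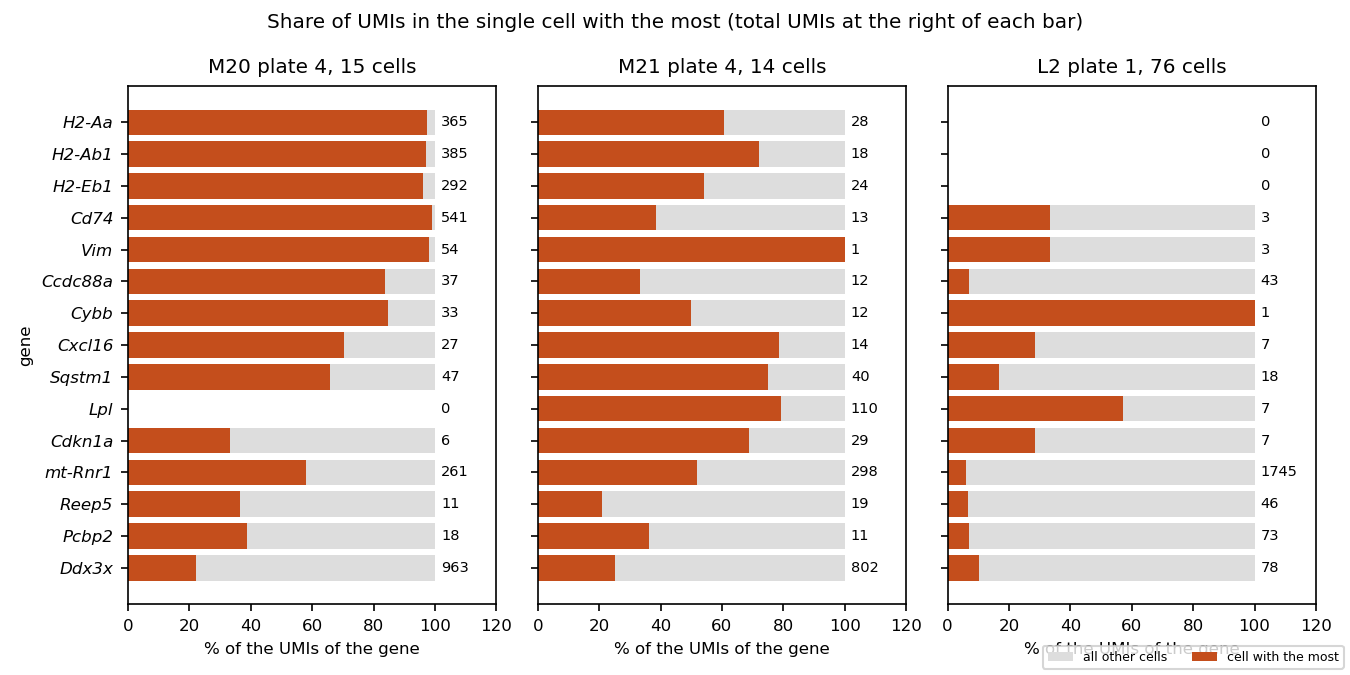
Bars give, for 15 genes, the percent of a gene's UMIs in the single cell that held the most (dark) and in all other cells (pale), in M20 and M21 of plate 4 and L2 of plate 1, with total UMIs at the right. The MHC class II genes, Vim, Ccdc88a and Cybb of M20 and Lpl, Cxcl16 and Sqstm1 of M21 lie mostly in 1 cell, while Ddx3x does not.

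The gene lists were read by their counts beside those of all tested genes, of which 970 of 1856 were positive. Of 37 lists, 18 had at least 5 tested members, 8 had 1 to 4 and 11 had none, and 0 lists had a called member. In the homeostatic microglia list all 24 genes were tested, 6 positive and 18 negative, with a median log2 fold change of -0.09 (0.05 on plate 1 and -0.06 on plate 4). Its genes summed to 90468 CPM in L2 and 89829 CPM in L1, and to 74510, 79596 and 80897 CPM in M20, M21 and M26. P2ry12 stood at 3778 and 3751 CPM in L2 and L1, and at 2511, 2577 and 3465 CPM in M20, M21 and M26. Cx3cr1, the fractalkine receptor, stood at 8803 and 8446 CPM on plate 1 and at 3454, 5070 and 4062 CPM on plate 4. Tmem119 stood at 1881 and 2111 CPM on plate 1 and at 1421, 1226 and 1307 CPM on plate 4. Both HFD sums of plate 4 lay below M26 for P2ry12 (log2 difference -0.44), while the diets of plate 1 differed by 0.01. P2ry12 did not pass the test. The sums of M20 and M21 included the cells low in microglial markers. In M20 the cell with 1546 class II UMIs held 19948 of the 83007 transcripts, with 0 UMIs of P2ry12 and 14 of Cx3cr1. In M21 the cell with a marker share of 0.874% held 2 UMIs of P2ry12. How much of the plate 4 difference in P2ry12 came from these cells was not tested.

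The disease-associated microglia list, genes known to rise near plaques and dying cells, had 8 tested members with 6 positive and a median of 0.08. Its protease Ctsb stood at 1829 and 1677 CPM on plate 1 and at 2046, 1860 and 1619 CPM on plate 4. Among 19 tested lysosomal genes 13 were positive, with a median of 0.10, and 9 of the 19 lay above the control in every HFD sum, beside 404 of the 1856 tested genes. Ctsz, a lysosomal protease, stood at 1061 and 836 CPM in L2 and L1, and at 1115, 1088 and 625 CPM in M20, M21 and M26. Cd63, a membrane protein of lysosomes, stood at 375 and 209 CPM on plate 1 and at 233, 234 and 170 CPM on plate 4. Their log2 fold changes were 0.50 and 0.66 and neither passed the test.

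Of the lists that concern fat and energy, lipid uptake and handling had 8 tested members, 5 positive, with a median of 0.03. Apoe, the lipid carrier, stood at 756 CPM in L2 and 857 CPM in L1, with 79.2% and 52.2% of the UMIs in 1 cell, and at 392, 317 and 256 CPM in M20, M21 and M26. The cholesterol transporter Abca1 stood at 340 and 343 CPM on plate 1 and at 184, 179 and 341 CPM on plate 4. Glycolysis had 7 tested members, 5 positive, with medians of -0.08 on plate 1 and 0.94 on plate 4. Hexokinase 2 (Hk2) stood at 398 and 300 CPM in L2 and L1, and at 294, 331 and 199 CPM on plate 4. The nuclear respiratory chain list had 10 tested members, 5 positive, with a median of 0.06. Atp5b, a subunit of ATP synthase, stood at 288 and 182 CPM on plate 1 and at 196, 262 and 114 CPM on plate 4. No gene of fatty acid oxidation or cholesterol synthesis was tested, and these lists summed to 455 to 713 CPM and 56.8 to 269 CPM in the sums. Ucp2, the mitochondrial uncoupling protein, stood at 542 and 525 CPM on plate 1 and at 367, 400 and 312 CPM on plate 4.

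Inflammatory lists had few tested members. NF-kB pathway genes were 1 positive and 4 negative of 5 tested, and the inflammation list had 2 tested members. Nfkbia, the NF-kB inhibitor, stood at 312 and 322 CPM in L2 and L1, and at 563, 138 and 0 CPM in M20, M21 and M26, with 39 of its 46 UMIs in M20 in the cell with 1546 class II UMIs. Among 7 tested Toll-like receptor genes 3 were positive. Cd14, the co-receptor for endotoxin, stood at 392 and 450 CPM on plate 1 and at 282, 896 and 199 CPM on plate 4. Complement had 1 positive and 5 negative of 6 tested members, with a median of -0.17. C1qc stood at 3951 and 4486 CPM in L2 and L1, and at 3577, 4313 and 5624 CPM in M20, M21 and M26.

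Immediate early genes summed to 4921 and 6661 CPM in L2 and L1 and to 1274, 992 and 341 CPM in M20, M21 and M26. The list is known to respond to tissue dissociation, and its median difference was -0.30 on plate 1 and 0.85 on plate 4, opposite in sign. Fos stood at 652 and 1233 CPM on plate 1 and at 0, 13.8 and 0 CPM on plate 4. Jun stood at 1096 and 1661 CPM on plate 1 and at 110, 110 and 0 CPM on plate 4. Antioxidant genes had 4 positive of 5 tested members with medians of -0.22 and 0.93 on plates 1 and 4, and ferritin heavy chain (Fth1) stood at 2683 CPM in M20 against 767 to 978 CPM in the other 4 sums. The unfolded protein response had 4 positive of 5 tested members, chaperones 7 of 11, TGF-beta signalling 4 of 7 and Fc receptor and ITAM signalling 8 of 14, with medians of 0.22, 0.02, 0.12 and 0.02. Hsp90ab1, a cytosolic chaperone, stood at 1038 and 857 CPM on plate 1 and at 539, 716 and 114 CPM on plate 4, and had an unadjusted p of 0.0405 (edgeR adjusted p = 0.9998).

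**Figure D5:**
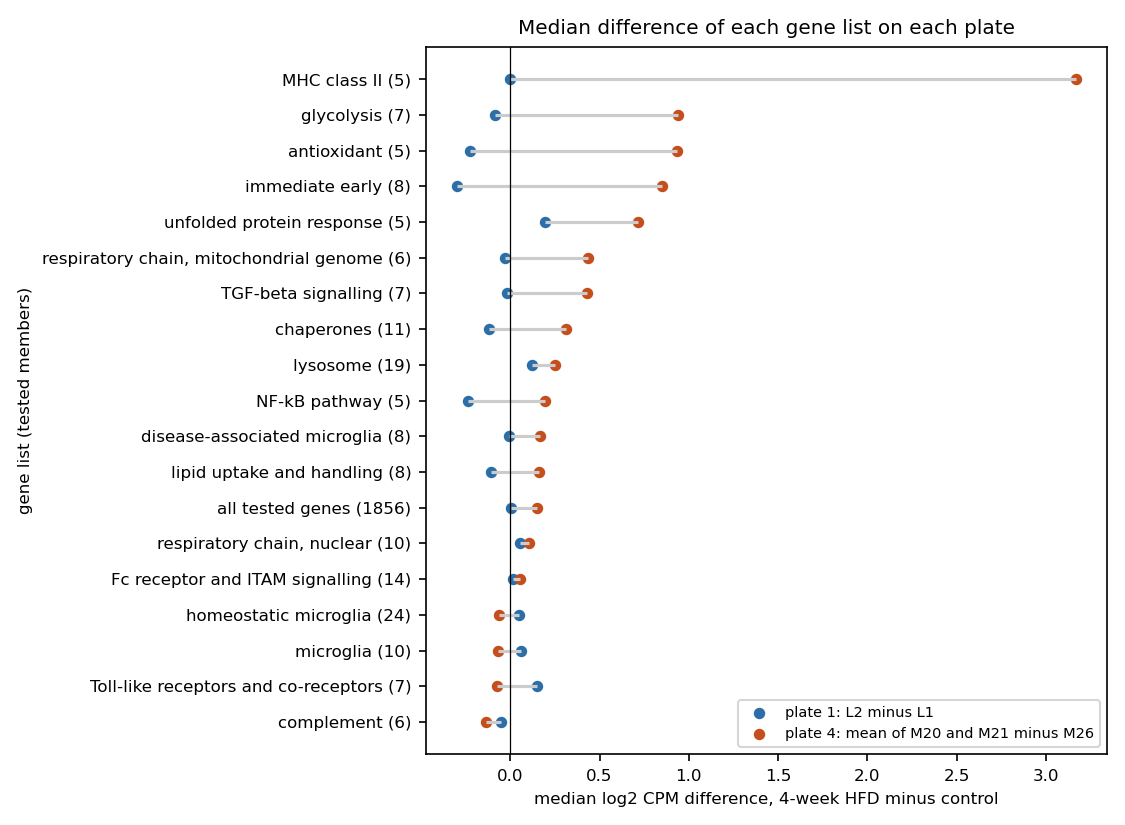
Median log2 CPM difference of 4-week HFD minus control over the tested members of each list with at least 5, and of all 1856 tested genes, on plate 1 (blue) and plate 4 (orange). MHC class II, glycolysis, antioxidant and immediate early genes are positive on plate 4 and at or below 0 on plate 1, and the homeostatic list is near 0 on both.

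On plate 4 the 4-week sums could also be compared with sums of the shorter diets, 3 days (M24 and M25) and 7 days (M22 and M23), without the control M26. edgeR called 4 of 2081 tested genes, 3 higher at 4 weeks (0.144%) and 1 lower (0.0481%), and DESeq2 called 3. Apoe was lower, at 397 and 317 CPM in M20 and M21 against 2349 to 4167 CPM in the 4 shorter sums. The log2 fold change was -3.09 ± 0.29 (SE, edgeR adjusted p = 3.87e-08). In the shorter sums 13 to 19 cells each held Apoe and 26.3% to 46.7% of the UMIs lay in 1 cell. On plate 5, however, the 4-week sums stood at 2541 and 3378 CPM for Apoe, with 93.4% and 48.2% of the UMIs in 1 cell, and the log2 fold change there was 0.47. With replicates summed over plates 4 and 5 it was -0.87 (edgeR adjusted p = 0.0466).

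Sqstm1, the autophagy receptor p62, stood at 583 and 551 CPM at 4 weeks against 127 to 182 CPM in the shorter sums, a log2 fold change of 1.94 ± 0.28 (SE, edgeR adjusted p = 1.05e-04). On plate 5 M20 and M21 both stood at 123 CPM for Sqstm1, and its log2 fold change there was -0.47. Summed over both plates it was 1.22 (edgeR adjusted p = 0.013). Cxcl16, a chemokine, stood at 335 and 193 CPM against 25.4 to 53.4 CPM (2.81 ± 0.47, edgeR adjusted p = 9.73e-04). Cybb, the catalytic chain of the phagocyte NADPH oxidase, stood at 409 and 165 CPM against at most 134 CPM (2.40 ± 0.50, edgeR adjusted p = 0.0229). DESeq2 did not call Cybb, and edgeR did not call it against 3 days alone. On plate 5 M20 and M21 stood at 20.5 and 54.5 CPM for Cxcl16 and at 20.5 and 708 CPM for Cybb. In each of Sqstm1, Cxcl16 and Cybb 50% to 84.8% of the UMIs of each 4-week sum of plate 4 lay in 1 cell. Without the cells low in microglial markers, edgeR called 1 gene, Apoe, at a log2 fold change of -2.80 (adjusted p = 1.33e-10), and the value of Sqstm1 was 0.49. Against control, in the comparison of both plates, the log2 fold changes of Apoe, Sqstm1, Cxcl16 and Cybb were 0.01, 0.53, 1.66 and 1.82, none called. The class II genes were also high in a sum of a shorter diet. M24 of the 3-day diet stood at 3631 CPM for Cd74 and 3052 CPM for H2-Aa, found in 10 and 12 of 22 cells. At least 5 class II UMIs were held by 31.8% and 8% of the cells of M24 and M25 (3 days) and by 0% and 41.2% of those of M22 and M23 (7 days), on both sides of the 20% and 21.4% of M20 and M21. For H2-Aa the difference between the lengths was 1.59 on the log2 scale (edgeR adjusted p = 0.645). The direction for class II turned with the sum left out. Cd74 was higher at 4 weeks without M21 (2.87) and lower without M20 (-2.40), each from a fit with a single 4-week sum. In M20 536 of the 541 Cd74 UMIs lay in 1 cell.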

How the data were processed

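Single microglia were measured by CEL-Seq2 on 13 plates, of which plates 1 and 4 were compared here. Per the study's methods, barcodes were removed by Cutadapt, STAR aligned the reads to mm10 (GRCm38), and featureCounts assigned them to genes, all inside the snakePipes workflow. The values the authors deposited are estimated counts (expected counts) of transcripts for each gene and well, that is, UMIs corrected for chance repeats among 4096 possible 6-base UMIs. They carry no normalization, and 100% of values above 0 gave whole UMIs within 0.001. The correction grows with the level of a gene. Strand use in the counting was not given in the sources used here, so genes with an antisense partner are uncertain.

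Wells with at least 1500 transcripts over the 17280 genes of the authors' filtered table were kept. Estimated counts were summed per replicate identifier and plate (at least 5 cells), then rounded, and edgeR 4.0.16 in R 4.3.3 tested them by quasi-likelihood after TMM scaling and filterByExpr, with the plate as a block, with Benjamini-Hochberg adjustment at 0.05. DESeq2 1.42.0 was the other tool. CPM are TMM-scaled unless called plain, and log2 CPM used a prior count of 2, which understates changes of low genes. The fits were tested on simulated data. Doublets were not called. Cells were sorted singly into wells, and whether a well held more than 1 cell was not tested. Diets, identifiers and lengths came from the table of wells. scipy 1.17.1, numpy 2.4.6 and pandas 2.3.3 served the rest.

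Genes named were all that passed the threshold, otherwise the 5 with the smallest p in each direction, the 8 in each direction with the largest smaller-of-both-plates difference among genes of at least 100 CPM with every HFD sum on the same side of its control, up to 4 by fold and 4 by level in each list, and the microglial markers. Fhl3, Lpl, S100a9, S100a4, Alb and Xist were also named after their values were seen. The members and lists were chosen with earlier results of these data known. Alternatives covered the tool, scaling, filters on genes and cells, the plate block and leaving out each sum.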

Additional observations from a re-analysis of the deposited data

Results flagged for a closer look

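The 4-week cells on plate 5 entered no comparison with control, because no control cell there passed the minimum. A set of 21 genes was examined, drawn from those named by p, called, or chosen after their values were seen. Of these, 8 stood above the highest of the 28 control sums of the series in the M21 sum of plate 5 and 0 in the M20 sum. Some were chosen for high levels in the same identifiers on plate 4, so this count is no independent support and cannot be weighed against the share over all genes. Over all 17280 genes, 479 (2.77%) did so in M21 and 259 in M20. The control sums were scaled in a separate set. S100a9 stood at 13499.5 CPM, against 0 in all 28 control sums, with 867 of 884 UMIs in 1 cell whose microglial marker share was 0.252%, and 12 of the 13 cells held at least 1 S100a9 UMI. H2-Ab1 stood at 2316 CPM (highest control 195 CPM), H2-Aa at 2139 CPM (189 CPM), Cd74 at 1962 CPM (271 CPM) and H2-Eb1 at 1880 CPM (172 CPM), and a single cell with 577 class II UMIs held most of each. Cybb stood at 708 CPM (highest control 148 CPM), with 34 of 52 UMIs in 1 cell. Vim stood at 177 CPM (57.4 CPM), with all 13 UMIs in 1 cell. Alb stood at 81.7 CPM (20.7 CPM), with all 6 UMIs in 1 cell. The groups of 2 and 3 sums are too small for a search for outlying samples.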

How the results depend on the processing

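The count of 0 genes called against control stayed 0 under 14 of 22 alternatives. It was 7 with no filter on low counts (Cd74, H2-Aa, H2-Ab1, H2-Eb1, Fhl3 and Vim higher, Ddx3x lower), 5 with the control sums of all plates added (the 4 class II genes and Fhl3 higher), and 1 (Ddx3x, lower) without cells with markers of other cell types. Among alternatives chosen after seeing the data it was 14 on plate 4 alone and 1 (Ddx3x) without cells low in microglial markers. Leaving out each sum gave 0 to 9 genes. Without L2, and likewise without L1, 9 genes were called, all higher, with plate 4 then deciding the contrast, and without M26 2 were called, Fhl3 higher and Ddx3x lower. A sum left alone in its group was assumed to vary like the others. Of the named genes, H2-Aa ranged from -2.65, reversed, without M26 to 5.42 without L2, and Ccdc88a from 1.62 without M26 to 8.02 without L2, where M26 holds 0 UMIs and the value depends on the prior count. The count against shorter diets was 4. It was 16 without M20 and 46 without M21, 7 with replicates summed over plates 4 and 5, 0 on plate 5 alone, 1 against 7 days alone and 1 without cells low in microglial markers. On plate 5 alone Apoe (0.47) and Sqstm1 (-0.47) reversed. The count past 2-fold on both plates was 3, all higher, against 20 at a minimum of 50 CPM (12 higher, 8 lower), 0 at 300 CPM and 10 with thinned cells (8 higher, 2 lower), 3 without M20 (3 higher) and 2 without M21 (1 higher, 1 lower). The class II share difference of plate 4 was 6.43 percentage points at the minimum of 5 UMIs. At a minimum of 3 UMIs it was 26.4, and 10.2 at that same minimum in thinned cells. At the minimum of 5 it was 4.40 without cells low in microglial markers, and 5.71 to 7.14 without M21 or M20. The median transcript difference of plate 4 ranged from -81.9, reversed, without M20 to 397 without M21. On plate 4, without M20 or M21, the median gene difference ranged from 191 to 199 and the difference in the share with other markers from 13.3 to 35.7 percentage points. No paired analysis was possible because the identifiers of the diets share no replicate numbers. The 7 control cells of plate 4 limit every comparison with control there.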
